A study of Rattus norvegicus with 18 samples.

Results

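Lungs of rats that had inhaled cigarette smoke at 600 µg of total particulate matter per litre of air were compared with lungs of sham-exposed rats. The comparison takes 12 of the 18 arrays of the study, chosen by their titles, 6 from smoke-exposed and 6 from sham-exposed lungs. The rats were male Sprague-Dawley animals, held for nose-only exposure to mainstream smoke of the reference cigarette 2R4F or to sham, 2 h a day on 5 days a week for 13 weeks. Their age and the number of animals behind an array are not given in the sources used here. Total lung RNA was taken 2, 6 or 20 h after the last session and hybridised to both of a pair of Affymetrix array designs, here type A and type B, with few probe sets in common. Each combination of exposure, recovery time and array type had 1 array. The 3 recovery times therefore serve as the replicates of an exposure (n = 3 arrays per exposure and type). Recovery time is a term of the fit, so differences between times that all exposures share are taken out of the spread behind each p-value. What remains, among so few arrays, mixes technical spread, differences between lungs and effects of exposure that change with recovery time. The exposure field of both smoke samples at 20 h reads sham, against their titles and source names, by which they were kept as smoke samples. The labels of both 300 µg/l samples at 20 h, which enter the fit for its spread, clash in the same way.

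Inhaled smoke reaches the airway epithelium and the alveoli, where resident macrophages take up particles and epithelial cells release chemokines that attract neutrophils and monocytes. Polycyclic hydrocarbons of smoke activate the aryl hydrocarbon receptor (AhR), whose best-known target is the monooxygenase gene Cyp1a1, and its oxidants activate the transcription factor NRF2, which drives glutathione and quinone-reducing enzymes. Macrophages that have engulfed particles and lipid are known for high levels of lysosomal enzymes. A lung homogenate mixes all these cells with endothelium, fibroblasts, epithelium and lymphocytes, and in such bulk RNA a larger or smaller number of cells of a type and more or less RNA per cell cannot be told apart.

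Among called genes the largest rises at 600 µg/l were those of an innate calcium-binding protein, an acidic chitinase, a metallothionein and a siderophore-binding protein. The falls included some matrix genes, 2 genes of a nerve list, and 1 gene each for a Wnt inhibitor, an arterial gap junction protein and a lung P450. Cyp1a1 had a larger fitted difference and was not called. Signals are the authors' deposited array intensities, differences are given on the scale of log2(signal + 50), and 19638 probe sets for 10165 named genes were bright enough to test. With limma and an adjusted p under 0.05, 101 probe sets were called (0.514% of those tested), 84 higher (0.428%) and 17 lower (0.0866%). Of the called probe sets 84 carried 1 gene symbol, for 82 genes, 7 carried several and 10 were not listed in the annotation. When each gene was represented by its brightest probe set, 63 genes were higher (0.620% of the 10165) and 13 lower (0.128%). All 3 arrays at 600 µg/l lay above all 3 sham arrays in 813 genes (8.00%) and below them in 765 (7.53%), so a lack of overlap alone was common. An unadjusted p under 0.05 was reached by 2031 probe sets. Of the called, 12 passed the filter on dim probe sets through 1 side only: in 11 all 3 sham arrays, and in 1 all 3 arrays at 600 µg/l, were under it. Such a probe set had to differ to be tested, so its call supports nothing and its signals alone are given, and 89 calls remain without these, 73 higher and 16 lower. Leaving out 1 exposure and time at a time lowered the count by over 1.5 times in each case: 48, 49 and 58 calls were left without sham at 2, 6 and 20 h, and 47, 51 and 43 without 600 µg/l at those times. With both array types at 20 h left out for all exposures, 55 were called, 46 higher and 9 lower, and 27 of the 101 calls held under every alternative that tested them.

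Before the results, 1 array needs a remark. On type B, the sham array at 2 h and the 300 µg/l array at 2 h were alike (r = 0.56 between their deviations from the mean array, across probe sets, which are not independent; all other pairs of B arrays were at most 0.12). Only 9 of the 101 calls are on type B. Each is given below with and without that array, by signals alone where all sham signals were under the filter. Without it 124 probe sets were called, 103 higher, 19 of them on type B, and of the 9 calls on type B 6 were lost, while none of the calls on type A was lost. Median signals of the arrays ran from 263.6 to 278.5 on type A and from 315.3 to 338.7 on type B, and 3'/5' signal ratios of GAPDH from 1.09 to 1.25 and from 0.976 to 1.16. The ratios of hexokinase were more uneven, from 2.62 to 4.52 on type A and from 2.56 to 4.72 on type B. The highest were sham at 6 h on type A and 300 µg/l at 20 h on type B, where sham at 6 h stood at 3.68. In the sentences below 3 signals in a row are those at 2, 6 and 20 h. Counts of called genes in a list are to be read beside the 0.620% called higher and 0.128% called lower over all genes.

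**Figure D1:**
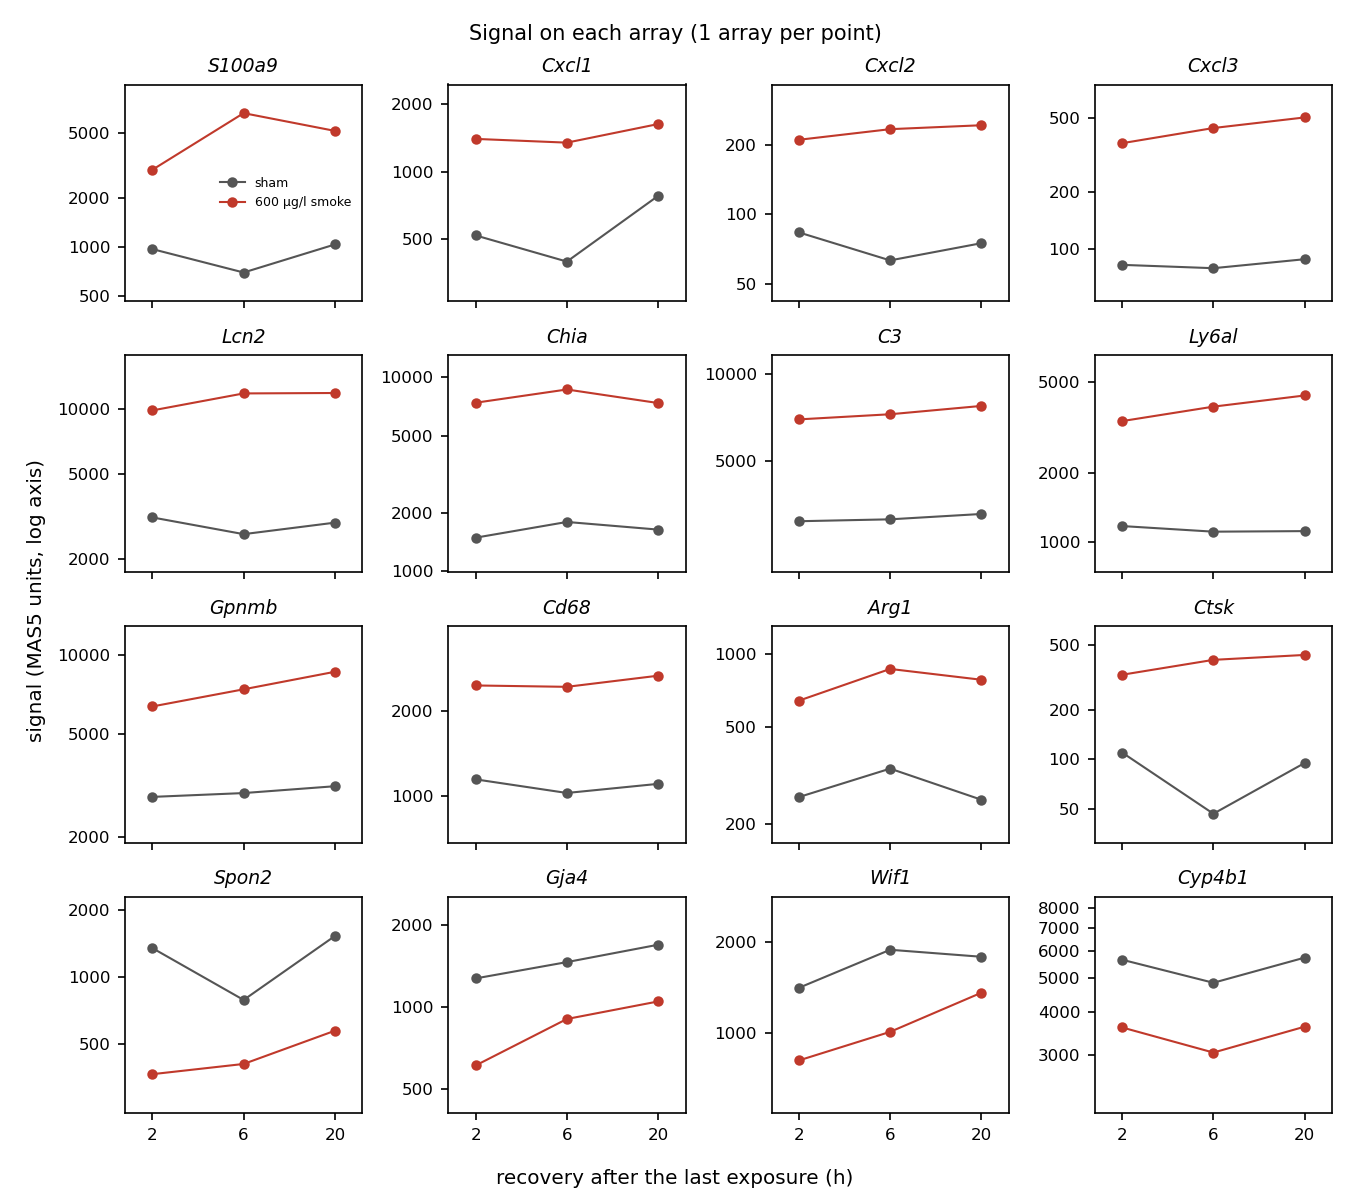
Signals of 16 genes on each array (y axis, MAS5 units, log scale) against recovery time (x axis, h), sham in grey and 600 µg/l smoke in red. Each point is 1 array of different lungs, the times are spaced evenly, the lines only join them, and Cxcl3 is its probe set with the lowest adjusted p. In 12 genes all 3 red points lie above all 3 grey points, and in Spon2, Gja4, Wif1 and Cyp4b1 all lie below.

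Of the neutrophil genes S100a9 and Cyba rose at 600 µg/l, and so did some genes of chemokines that attract neutrophils. S100a9, a subunit of the calcium-binding heterodimer calprotectin, read 968, 695 and 1033 in sham and 2976, 6636 and 5161 at 600 µg/l. It was higher at each time, most at 6 h, and rose by log2 2.34, SE 0.22 (adjusted p = 0.00155). Its partner S100a8 read 298, 194 and 614 against 375, 908 and 638, with sham at 20 h inside the range of the smoke arrays, and did not pass (log2 0.77, SE 0.30, adjusted p = 0.4). Cyba, the small membrane subunit of the phagocyte NADPH oxidase, read 1578, 1411 and 1621 in sham and 2259, 2268 and 2729 with smoke and rose by log2 0.64, SE 0.10 (adjusted p = 0.0219). Cybb, its larger partner, is measured on type B and stood at log2 0.42, adjusted p = 0.337. Also on type B, Ncf4 stood at -0.07, adjusted p = 0.9. Csf3r did not pass, ran from 0.06 to 0.47 over the alternatives and was called in none of them. Of the 6 neutrophil genes measured 2 rose (1, S100a9, without the 20 h arrays or without the intensity trend), none fell and 4 did not pass, where 0.620% of all genes were called higher. The median was 0.53, against -0.004 over all genes. The summed signal of the 6 genes was 5838 to 7543 in sham and 10297 to 14496 at 600 µg/l. The other 6 neutrophil genes on the arrays did not pass the filter on dim probe sets (a signal of at least the 40th percentile of its type in 3 of 9 arrays) and read 13.7 to 203 over the 12 arrays. Among them the chemokine receptor gene Cxcr2 read 81.1, 104 and 101 in sham and 90.5, 119.5 and 108 with smoke, and the granule collagenase gene Mmp8 103, 139 and 84.6 and 87.8, 106 and 109, with groups that overlapped.

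Among ligands of that receptor, Cxcl1 read 521, 398 and 781 in sham and 1401, 1348 and 1632 at 600 µg/l, with no overlap, and rose by log2 1.33, SE 0.22 (adjusted p = 0.0328). Cxcl2 read 83.5, 63.2 and 75.0 in sham, under the type A filter of 183.8, and 209.9, 233 and 243 with smoke, and was tested only through its smoke arrays. For Cxcl3, a further such ligand chosen after its values were seen, 5 probe sets were tested. The one with the lowest adjusted p read 82.0, 78.7 and 87.9 in sham, also under the filter, and 367, 442 and 503 with smoke. Another rose from 220, 191 and 310.3 to 525, 583 and 549 (log2 1.07, SE 0.18, adjusted p = 0.0355). The other 3 did not pass, and among them were the brightest, on type B, at log2 0.53, adjusted p = 0.338, and a bright one on type A at log2 0.16, adjusted p = 0.636. The probe sets listed under Cxcl3 therefore disagree, from dim ones that were called to bright ones that did not pass. Cxcr1, a receptor of the same ligand family also chosen after its values were seen, rose from 236, 229.5 and 237 to 542, 391 and 434 (log2 0.82, SE 0.11, adjusted p = 0.0118).

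The stretch just before the annotated start of Cxcl1 and Cxcl2 is shown because both were called and both carry letters of the motif bound by NF-kB, a transcription factor known to switch on chemokine genes. The sequences are from RefSeq (GRCr8, minus strand, Cxcl1 at chr14:17479322-17479441 and Cxcl2 at chr14:17467256-17467375), 120 bases each, 5′ to 3′, ending at the base before the start. Capitals mark matches on either strand to the kB motif, spelled here as GGG, any 2 letters, TT, any letter and CC.
Cxcl1: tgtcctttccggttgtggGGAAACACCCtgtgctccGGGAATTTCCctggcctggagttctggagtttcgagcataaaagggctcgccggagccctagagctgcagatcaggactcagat
Cxcl2: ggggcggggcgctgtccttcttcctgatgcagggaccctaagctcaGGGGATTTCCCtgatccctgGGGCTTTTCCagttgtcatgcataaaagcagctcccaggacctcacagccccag
Cxcl1 holds 2 matches, which begin 102 and 84 bases before the start, and Cxcl2 holds 3, which begin 74, 73 and 54 bases before it, the first pair overlapping. Among 300-base windows (250 bases before to 50 after the start) the motif was in 4.95% of 27457 promoters. It was in 7 of the 54 windows found for the 69 named genes with a probe set called higher (13.0%), namely those of Cxcl1, Cxcl2, Cmbl, Dab2, Gstp1, Pdzk1ip1 and RT1-Ba, and in none of the 11 found for the 13 named genes called lower. Of these genes Cxcl2 and Pdzk1ip1 were tested only through their smoke arrays, and the shares were not counted without such genes. A match says only that the letters are there.

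Of 27 chemokine and cytokine genes measured, 5 rose (1, Cxcl1, without the 20 h arrays), 1 fell (none without them) and 21 did not pass. Without the intensity trend 1 rose, Cxcl2, which was tested only through its smoke arrays. With the sham and 600 µg/l arrays alone 2 rose, and none fell in either setting. Over all genes 0.620% were called higher and 0.128% lower. Of the 5 risers 4 were also bright in sham, and the median of the 27 was 0.31. Besides Cxcl1 and Cxcl2, the macrophage inflammatory protein gene Ccl3 went from 418, 379 and 322 to 591, 578 and 691 (log2 0.67, SE 0.11, adjusted p = 0.0385). Ccl6, a CC chemokine of macrophages, was bright in sham at 6382, 5382 and 7188 and read 8839, 9691 and 9303 with smoke (log2 0.56, SE 0.09, adjusted p = 0.0307). Its type B probe set stood at log2 1.16, adjusted p = 0.0845, and without the doubtful array at 1.56, adjusted p = 0.00197. Il18, a cytokine released by inflammasome activity, was tight in sham at 629, 620.1 and 630.3 and read 856, 919.6 and 955 (log2 0.50, SE 0.09, adjusted p = 0.0397). Ccl5, which attracts T cells, read 3206, 3091 and 3135 in sham and 1860.2, 2307 and 2237 at 600 µg/l, all lower, and fell by 0.55 (SE 0.10) on the log2 scale (adjusted p = 0.0426). Cxcl14, a chemokine of epithelium and fibroblasts, stood at -0.80, adjusted p = 0.0513, and Il1b at 0.69, adjusted p = 0.0838. None of 19 chemokine and cytokine receptor genes passed (limma; median 0.03), Ccr1 being nearest at 0.46, adjusted p = 0.337. Of the 19, 3 did not overlap with smoke higher and 1 with smoke lower, where 8.00% and 7.53% of all genes did. Bcl2a1, an anti-apoptotic gene of activated leukocytes, rose from 545, 294 and 422 to 816, 802 and 886 (log2 0.95, SE 0.16, adjusted p = 0.0355), and Rgs1, a brake on chemokine receptor signalling, read 132, 113 and 127, under the filter, and 249.5, 255 and 227.

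Macrophage genes rose in part. Of 25 measured, 6 were called higher and 0 lower, where 0.620% of all genes were called higher. Above 0 were 22 of the 25 estimates, and 15 did not overlap, all higher, where 8.00% of all genes did. The median was 0.39 and the summed signal 64181 to 65791 in sham and 80464 to 88978 at 600 µg/l. Without the doubtful type B array 8 rose, and without the 20 h arrays 4. Cd68, the endosomal glycoprotein used to stain macrophages, read 1147, 1026 and 1106 in sham and 2468, 2440.3 and 2672 with smoke (log2 1.17, SE 0.09, adjusted p = 5.17e-04). The groups were tight and far apart. Gpnmb, a glycoprotein of lipid- and debris-laden macrophages, went from 2857, 2956 and 3140.2 to 6366, 7411 and 8656 (log2 1.30, SE 0.11, adjusted p = 5.19e-04), and Lgals3, the lectin galectin-3, from 4160.3, 5706 and 4956 to 7821, 8559 and 8326 (log2 0.74, SE 0.08, adjusted p = 0.00336). Cd14, the lipopolysaccharide co-receptor, read 591, 511 and 576 and then 1026, 1171 and 824 (log2 0.78, SE 0.12, adjusted p = 0.0212), its smallest difference being at 20 h. C1qc, a subunit of the first complement component, rose by log2 0.65, SE 0.11 (adjusted p = 0.0426) and its partner genes C1qa and C1qb stood at 0.46, adjusted p = 0.114, and 0.40, adjusted p = 0.334. Mmp12, the macrophage elastase, read 191, 158 and 162 in sham and 393, 797 and 607 with smoke, highest at 6 h (log2 1.51, SE 0.27, adjusted p = 0.0449).

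Other macrophage markers did not pass. The receptor gene Csf1r stood at -0.12, adjusted p = 0.785, lysozyme Lyz2 at 0.03, adjusted p = 0.87, Aif1 at 0.04, adjusted p = 0.955, and the type B genes Adgre1 and Cd163 at -0.40, adjusted p = 0.609, and -0.16, adjusted p = 0.73. Lyz2 was among the brightest genes of the list, at 16610.4, 18154 and 18434 in sham and 17538, 18118 and 18671 with smoke, and its groups overlapped. Trem2, a lipid receptor of macrophages on type B, read 375, 304 and 109 in sham and 386, 848 and 963 with smoke (log2 1.35, adjusted p = 0.262), and without the doubtful array stood at 1.86, adjusted p = 0.0794. Genes of myeloid cells outside the list and chosen after their values were seen included Capg, an actin-capping protein (log2 0.83, SE 0.12, adjusted p = 0.0192), Igsf6, a myeloid surface protein (log2 0.62, SE 0.09, adjusted p = 0.0202), and Trpv2, a cation channel of macrophages, which rose from 190.4, 229 and 201 to 346, 476 and 441 (log2 0.87, SE 0.11, adjusted p = 0.00636).

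Arg1, which encodes the arginase that turns arginine into ornithine and marks a wound-healing state of mouse macrophages, read 258, 337 and 252 in sham and 641, 865 and 781 at 600 µg/l. All 3 smoke arrays were about as far above their sham partners, at log2 differences of 1.17, 1.24 and 1.46, and the rise was log2 1.29, SE 0.09 (adjusted p = 2.71e-04). At 300 µg/l the 3 arrays, which share the sham arrays, read 388, 482 and 395. Nos2, the inducible nitric oxide synthase that uses the same substrate, read 169.5, 194 and 232 in sham and 35.0, 47.5 and 35.5 with smoke, where every array was under the filter, and did not pass. Of the 16 arginine, nitric oxide and polyamine genes measured, 1 was called, Arg1 (median 0.02). Plaur, the urokinase receptor of migrating leukocytes, read 124, 72.8 and 81.0 in sham, under the filter, and 232, 213 and 224 with smoke.

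Genes of the lysosome mostly had estimates above 0, while few passed singly. Of 35 lysosomal proteases, hydrolases and membrane proteins, 4 were called higher, 1 of them tested only through its smoke arrays, and 31 did not pass, but 32 estimates were above 0 and 20 of the 35 (19 of 34 without that gene) did not overlap, all higher, where 8.00% of all genes did. The median was 0.26. Ctsd, the aspartic protease cathepsin D, was already bright in sham at 4825, 5829.6 and 5885 and reached 9762, 10578 and 11027 with smoke (log2 0.92, SE 0.06, adjusted p = 2.71e-04). Its 3 differences were close together. That gene is Ctsk, the collagen-degrading cathepsin K, at 110.1, 46.7 and 95.1 in sham, under the filter, and 328, 404 and 433 with smoke. Naaa, which hydrolyses N-acylethanolamines, went from 1717, 1622 and 1839 to 3014, 3163 and 3543 (log2 0.89, SE 0.07, adjusted p = 5.19e-04), and Acp5, the tartrate-resistant acid phosphatase, from 600.3, 783 and 733 to 1160.2, 1063 and 1199 (log2 0.66, SE 0.11, adjusted p = 0.0389). Members just outside the threshold were legumain, Lgmn (0.38, adjusted p = 0.0613), and the cathepsin genes Ctsz (0.72, adjusted p = 0.0634) and Ctss (0.50, adjusted p = 0.0836). Cathepsins B and L stood at 0.28, adjusted p = 0.0987, and 0.14, adjusted p = 0.727. Pld3, an exonuclease of the endolysosome that no list held, rose from 332, 404 and 409 to 822, 789 and 901 (log2 1.04, SE 0.09, adjusted p = 8.96e-04), and so did Smpdl3a, a phosphodiesterase related to acid sphingomyelinase, by log2 0.83, SE 0.10 (adjusted p = 0.00636).

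The proton pump that acidifies lysosomes gave smaller values. Of 17 vacuolar proton pump subunit genes, Atp6v1b2 rose, from 1093, 1092 and 969 to 1378, 1548 and 1505 (log2 0.47, SE 0.08, adjusted p = 0.0426), and 16 did not pass. It was not called without the 20 h arrays, without the intensity trend or with only the sham and 600 µg/l arrays. In 16 of the 17 the estimate was above 0, with a median of 0.12, and the next smallest adjusted p was that of Atp6v0b (0.32, adjusted p = 0.205). Among 26 genes of lipid uptake, storage and efflux, 2 rose (4 without the doubtful array, 1 without the 20 h arrays), where 0.620% of all genes were called higher, and 24 did not pass (median 0.25). Fabp5, a cytoplasmic fatty acid carrier, read 2382, 2317 and 2706 in sham and 3664, 4796 and 5071 with smoke (log2 0.85, SE 0.10, adjusted p = 0.00632). Lpl, the lipase that frees fatty acids from lipoproteins, read 2149, 2006 and 2157 and 2925, 3312 and 3647 (log2 0.63, SE 0.08, adjusted p = 0.0101). In both the smallest difference was at 2 h. The scavenger receptor gene Cd36 came next at 0.58, adjusted p = 0.0503, while Apoe stood at -0.10, adjusted p = 0.744. Ch25h, which makes 25-hydroxycholesterol, is on type B and stood at 0.93, adjusted p = 0.0967, or 1.23, adjusted p = 0.0101 without the doubtful array. Enpp2, which encodes the lysophosphatidic acid-producing enzyme autotaxin, rose from 1306, 1527 and 1577 to 2979.8, 2934 and 2266, most at 2 h (log2 0.86, SE 0.13, adjusted p = 0.0237).

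**Figure D2:**
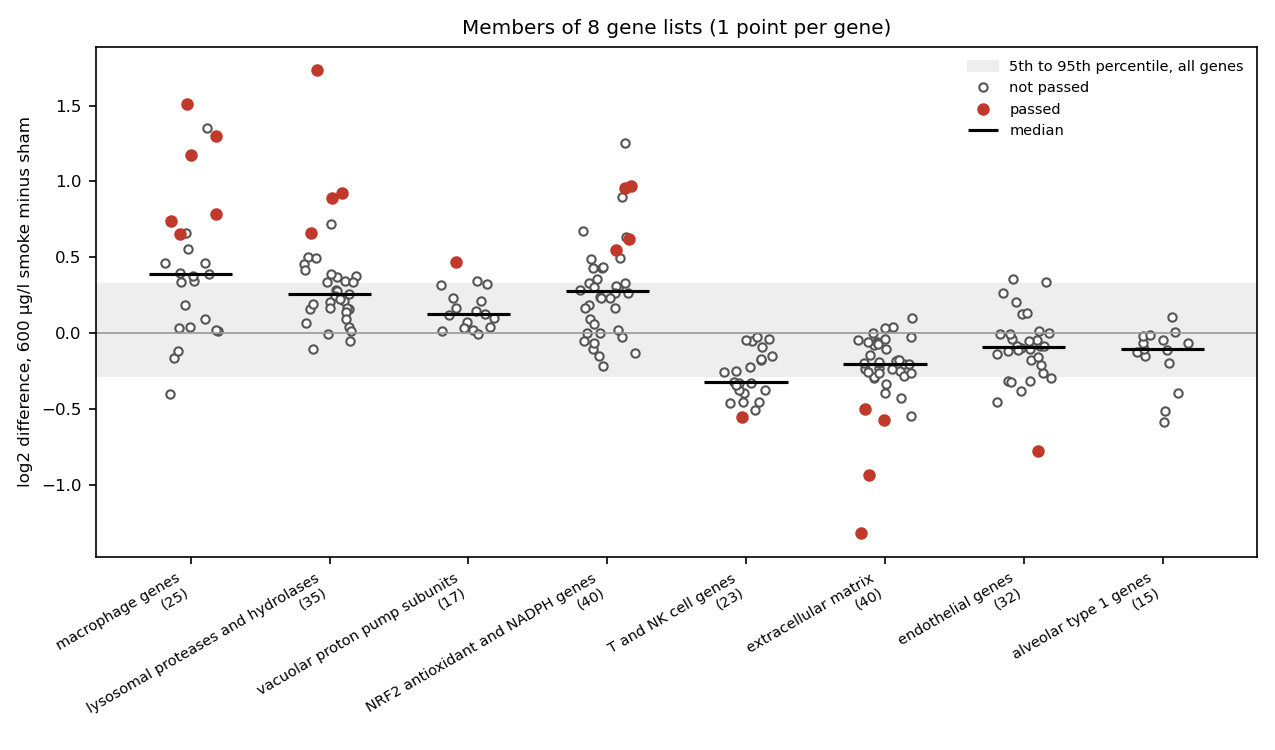
Log2 differences between 600 µg/l smoke and sham (y axis) for each measured gene of 8 lists (x axis, number of genes in brackets). Filled points passed an adjusted p of 0.05, bars are medians and the grey band holds the 5th to 95th percentile of all 10165 genes, -0.28 to 0.33. The medians run from 0.39 for macrophage genes to -0.32 for T and NK cell genes, of which all 23 lie below 0.

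Secreted defence proteins of the epithelium included the largest called rise after S100a9, that of Chia. Chia, an acidic chitinase that alveolar type 2 cells can secrete, read 1493, 1798 and 1643 in sham and 7385, 8641 and 7358 at 600 µg/l, at least 4-fold more on every array in signal, and had the smallest p of all (log2 2.21, SE 0.10, adjusted p = 9.41e-06). Lcn2, the siderophore-binding lipocalin, went from 3135, 2619.7 and 2964 to 9898, 11881 and 11935 (log2 1.93, SE 0.14, adjusted p = 2.71e-04). Slc26a4, the anion exchanger pendrin of inflamed airway, read 82.0, 94.2 and 72.3 in sham, under the filter, and 206, 309.7 and 514 with smoke, widest apart at 20 h. Pigr, the receptor that carries IgA across epithelium, showed a small change with little spread, 5911, 6653 and 6431 against 7586, 8523 and 8505 (log2 0.37, SE 0.06, adjusted p = 0.0307). Of 20 genes of mucosal defence and airway secretion 5 were called higher (4 without Slc26a4, and 3 in all without the 20 h arrays or without the intensity trend), where 0.620% of all genes were. None was called lower, and 15 did not pass (median 0.34, summed signal 39065 to 42835 in sham and 66827 to 73013 at 600 µg/l). The mucin genes Muc1 and Muc5b stood at 0.43, adjusted p = 0.0942, and 0.31, adjusted p = 0.623. The antiprotease gene Slpi, at -0.05, adjusted p = 0.942, had overlapping groups.

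Ly6al, a member of the Ly6 family of membrane-anchored proteins, was the strongest call on type B. It read 1174, 1109.5 and 1116 in sham and 3382, 3913 and 4379 with smoke (log2 1.73, SE 0.14, adjusted p = 5.19e-04), and 1.81, adjusted p = 0.00182 without the doubtful array. The arrays at 300 µg/l, which share the sham arrays, read 1208, 1502 and 1017. Plet1, a membrane protein of epithelial progenitors whose type A probe set was chosen after its values were seen, went from 1081, 739.7 and 1034 to 2647, 2637 and 3329 (log2 1.55, SE 0.11, adjusted p = 2.95e-04). Its type B probe sets did not pass (1.10, adjusted p = 0.165, and 0.93, adjusted p = 0.119), and the doubtful sham array stood near the smoke arrays on the first, which read 4351, 1840.3 and 1536 in sham and 4359.8, 4835 and 5946 with smoke. Without that array the first of them stood at 1.54, adjusted p = 0.00832. Ly6i, another Ly6 gene, rose on type A by log2 0.71, SE 0.10 (adjusted p = 0.0197).

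Complement and coagulation genes were mixed, with 2 of 23 called higher, 1 of them, Plaur, tested only through its smoke arrays, none lower and 21 not passing (median 0.10). C3, the central complement protein, was even across the times at 3084, 3131 and 3268 in sham and 6967, 7259 and 7759 with smoke (log2 1.20, SE 0.07, adjusted p = 1.59e-04), and was the only one among the 21 genes bright in both groups to pass. C5, the next component of the cascade, was lower with smoke on type B, 475, 416 and 305 against 179, 230.3 and 103. The latter were all under the filter, and C5 did not pass with or without the doubtful array. C4bpa, which encodes a chain of the complement inhibitor C4b-binding protein and was in no list, rose from 536, 426 and 532 to 895, 1188 and 1175 (log2 1.05, SE 0.15, adjusted p = 0.0189). Of 16 metalloproteinases and protease inhibitors 2 rose, where 0.620% of all genes were called higher, and 14 did not pass. The 2 were Mmp12 and Serpinb1a, an inhibitor of neutrophil elastase. Neither was called without the 20 h arrays or without the intensity trend. Serpinb1a read 1581, 1329.9 and 1743 in sham and 2057, 2079 and 2390.1 with smoke on type A (log2 0.48, SE 0.08, adjusted p = 0.0426), and its type B probe set stood at 0.18, adjusted p = 0.599. Cela1, an elastase first known from pancreas, rose from 194, 279 and 224 to 439.9, 413 and 461 (log2 0.80, SE 0.14, adjusted p = 0.0426).

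Targets of the AhR held the largest fitted difference of all named genes, that of Cyp1a1, and yet none of the 9 measured passed with all 3 times (limma; 2031 of all probe sets had an unadjusted p under 0.05). Cyp1a1 read 154, 111 and 102 in sham and 9463, 2122 and 207 at 600 µg/l. The 2 h array was more than 40 times the 20 h array, and even the latter was above all sham arrays. Cyp1a1 was tested only through its smoke arrays, all 3 sham signals being under the filter. The mean difference was log2 3.35, made of 5.54, 3.76 and 0.76, sizes that are uncertain for that reason and that are no bounds. Cyp1b1 was ordered by time in the same way, 2725, 757 and 547, against 474, 408 and 437 in sham (log2 1.17, SE 0.32, adjusted p = 0.2). Aldh3a1, an aldehyde dehydrogenase, read 1747, 232 and 63.0 against 68.4, 86.8 and 89.8, overlapped with sham at 20 h and did not pass. Like Cyp1a1 it was tested only through its smoke arrays. Nqo1, a quinone reductase under AhR and NRF2, read 5959, 3557 and 1616 against 1234, 1394 and 1389 (log2 1.25, SE 0.30, adjusted p = 0.143). With 1 array per time no single time can be tested, but a fit without the 20 h arrays called Nqo1 (1.77, adjusted p = 0.0064), while Cyp1b1 stood at 1.61, adjusted p = 0.14. Cyp1a1 was past the threshold there too, which supports nothing, since it had to differ to be tested. The median estimate was 0.49, and 0.27 without Cyp1a1 and Aldh3a1, whose sham signals were all under the filter. The medians of the 9 differences were 0.71, 0.43 and 0.15 at 2, 6 and 20 h.

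**Figure D3:**
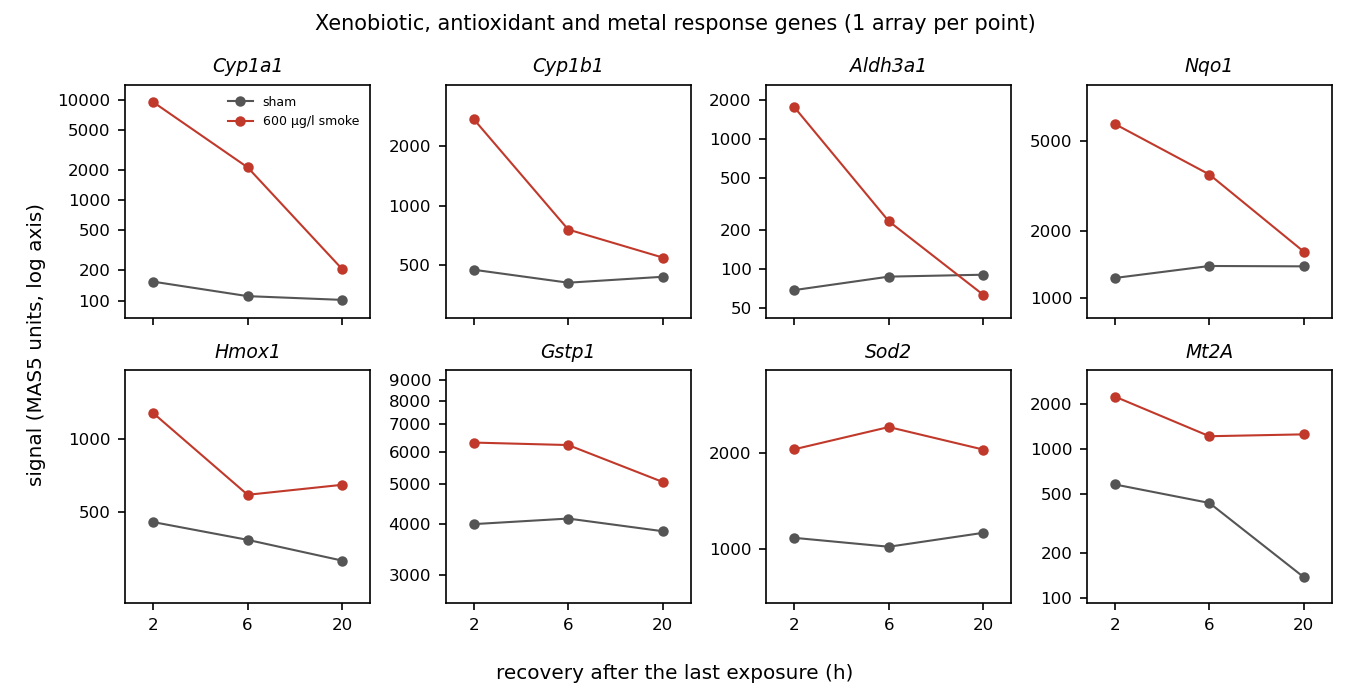
Signals of 8 xenobiotic, antioxidant and metal response genes on each array (y axis, MAS5 units, log scale) against recovery time (x axis, h), sham in grey and 600 µg/l smoke in red, 1 array per point. Cyp1a1, Cyp1b1, Aldh3a1 and Nqo1 come down towards sham by 20 h (Cyp1a1 from 9463 to 207), whereas Sod2 and Mt2A stay apart (Mt2A at 1254 against 139 at 20 h).

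Of 40 NRF2, antioxidant and NADPH genes 4 were called, all higher (1 without the intensity trend), where 0.620% of all genes were called higher. In 20 the groups did not overlap with all smoke arrays higher and in 1 with all lower, where 8.00% and 7.53% of all genes did. The median was 0.28. The medians at 2, 6 and 20 h were 0.36, 0.26 and 0.11, against -0.014, -0.001 and -0.006 over all probe sets tested. Sod2, the mitochondrial superoxide dismutase, read 1086, 1019 and 1126 in sham and 2048, 2400.1 and 2043 with smoke and differed by 0.89, 1.20 and 0.83 (log2 0.97, SE 0.09, adjusted p = 0.00119). The cytosolic and extracellular dismutases Sod1 and Sod3 stood at 0.09, adjusted p = 0.747, and -0.15, adjusted p = 0.659. Prdx5, a peroxiredoxin, went from 2113, 2074 and 2045 to 3001, 3082 and 3595 (log2 0.62, SE 0.11, adjusted p = 0.0426). Hmox1, the heme oxygenase, read 455, 385 and 316 against 1276, 589 and 648 and was highest at 2 h (log2 0.96, SE 0.16, adjusted p = 0.0376), and Gstp1, a glutathione transferase, read 3999, 4125 and 3843 against 6320, 6233 and 5068 (log2 0.55, SE 0.10, adjusted p = 0.0482). Other transferase genes, Gsta3, Gsta1 and Gstm1, stood at 0.90, adjusted p = 0.0747, at 0.67, adjusted p = 0.14, and at 0.63, adjusted p = 0.134. Without the 20 h arrays Gsta3 (1.19, adjusted p = 0.0193) and Gstm1 (0.87, adjusted p = 0.0193) were called, Hmox1 (0.97, adjusted p = 0.14) and Prdx5 (0.53, adjusted p = 0.122) were not, and 6 genes of the list rose in place of 4. Catalase, Cat, stood at -0.11, adjusted p = 0.796.

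Mt2A, a metallothionein that binds zinc, copper and cadmium, read 579, 436 and 139 in sham and 2243, 1219 and 1254 at 600 µg/l. Every smoke array was above every sham array, the sham signal at 20 h was the lowest of all and under the filter, and the differences were 1.87, 1.39 and 2.79 (mean log2 2.01, SE 0.21, adjusted p = 0.00209). Of 21 genes of metallothionein, heme and iron handling, Mt2A and Hmox1 rose (1 of them without the 20 h arrays, without the intensity trend or with only the sham and 600 µg/l arrays) and 19 did not pass (median 0.12). Steap4, an iron and copper reductase on type B, was just outside the threshold (0.73, adjusted p = 0.05, and 0.87, adjusted p = 0.0333 without the doubtful array). Fech, the last enzyme of heme synthesis, stood at -0.52, adjusted p = 0.0796. Hebp1, a heme-binding protein chosen after its values were seen, rose from 597, 545 and 652 to 1146, 958 and 979.9 (log2 0.73, SE 0.09, adjusted p = 0.00645).

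The bases before the starts of Mt2A and Gstp1 are shown because each carries the motif for which its family is a textbook example, the metal response element of metallothionein genes and the antioxidant response element of transferase genes. They are from RefSeq (GRCr8, minus strand, Mt2A at chr19:10838709-10838938, 230 bases, and Gstp1 at chr1:210769706-210769825, 120 bases), 5′ to 3′, ending before the start. Capitals mark TGCNCNC in Mt2A and TGACNNNGC in Gstp1, on either strand.
Mt2A: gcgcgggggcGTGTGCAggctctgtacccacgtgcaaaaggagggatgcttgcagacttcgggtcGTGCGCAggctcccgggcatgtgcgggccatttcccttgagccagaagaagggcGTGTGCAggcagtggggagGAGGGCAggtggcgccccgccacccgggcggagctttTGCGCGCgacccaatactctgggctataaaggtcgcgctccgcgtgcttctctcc
Gstp1: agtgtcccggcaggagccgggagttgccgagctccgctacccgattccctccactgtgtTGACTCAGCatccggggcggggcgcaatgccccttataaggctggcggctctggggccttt
Mt2A holds 5 matches, which begin 220, 165, 111, 92 and 55 bases before the start, and Gstp1 holds 1, which begins 61 bases before it and whose first bases also spell the AP-1 motif TGANTCA. In the 300-base windows TGCNCNC was in 50.1% of all promoters and TGACNNNGC in 12.2%. Of the 54 windows of genes called higher, 34 (63.0%) held the former and 9 (16.7%) the latter, among them those of Sod2 and Prdx5, as did 5 (45.5%) and 2 (18.2%) of the 11 of genes called lower. The AP-1 motif was in 7.33% of all promoters, in 10 of the 54 (18.5%), among them Mmp12, Plaur, Cd68 and Gpnmb, and in none of the 11. Both sets hold genes bright in 1 group only, such as Plaur and, among those called lower, Tnc. The shares were not counted without them.

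Further genes called higher had other roles, and those of this paragraph from Qsox1 on were chosen after their values were seen. Prodh2, a hydroxyproline dehydrogenase, read 160.5, 178 and 159.8 in sham, under the filter, and 363, 366 and 463 with smoke, and Pdzk1ip1, a small membrane protein, 139, 166 and 135, likewise, and 339, 334 and 376. P2ry2, the receptor for extracellular ATP and UTP, was tight at 302, 301 and 289.7 in sham and 641, 569.5 and 578 with smoke (log2 0.89, SE 0.13, adjusted p = 0.0188). Bhlhe41, a repressor in the circadian clock, read 517, 617 and 395 and 1012, 1071 and 1201, widest apart at 20 h (log2 1.05, SE 0.13, adjusted p = 0.00645), as the only one of 19 clock genes to pass. Qsox1, which forms disulfide bonds in secreted proteins, rose on one probe set from 224, 262 and 219.5 to 534, 585 and 532 (log2 1.08, SE 0.10, adjusted p = 0.00119), while its brighter one stood at 0.46, adjusted p = 0.0677. Atp1b1, the beta subunit of the sodium pump, rose on both its probe sets (log2 0.60, SE 0.09 and 0.69, SE 0.11) and the brighter one was highest at 2 h, at 5303 against 2887 in sham. Dab2, an endocytic adaptor, rose by log2 0.53, SE 0.08 (adjusted p = 0.0177), the innate DNA-sensing adaptor gene Sting1 by 0.57, SE 0.10 (adjusted p = 0.0471) and Vim, the filament protein vimentin, by 0.43, SE 0.06 (adjusted p = 0.0169), from 6991, 6828 and 7538 to 9136, 9546 and 10057. Among metabolic genes the hydrolase gene Cmbl rose by 0.79, SE 0.09, the amino acid transporter gene Slc6a20a by 0.79, SE 0.14, Psat1 of serine synthesis by 0.64, SE 0.11, the dipeptidase gene Cndp1 by 0.62, SE 0.09 and Pdhx of the pyruvate dehydrogenase complex by 0.72, SE 0.13 (adjusted p = 0.00409, 0.0426, 0.0426, 0.0189 and 0.0426). The remaining named riser on type A, Tc2n, rose by 0.45, SE 0.08 (adjusted p = 0.044), and 1 of 4 RT1-Ba probe sets, an MHC class II chain, by 0.68, SE 0.10 (adjusted p = 0.0192).

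Of the other calls on type B, 6 did not pass without the doubtful array. Gmnn, whose protein geminin restrains DNA replication licensing, read 106, 219.5 and 197 in sham and 436, 466 and 484 with smoke on the called probe set. The sham signals were all under the type B filter of 238.7, so its call, with or without the array, supports nothing. The brighter probe set of Gmnn stood at -0.01, adjusted p = 0.994. Sarm1, an NAD-cleaving enzyme of nerve cells and macrophages, went from 530, 636 and 496 to 1252, 1214 and 1164 (log2 1.07, SE 0.19, adjusted p = 0.044; without the array 0.98, adjusted p = 0.119). Nckap5l and the homeobox gene Irx3 were called at log2 0.82, SE 0.14 and 0.55, SE 0.10, and stood at 0.82, adjusted p = 0.0989 and at 0.59, adjusted p = 0.0899 without it, and a second probe set of each did not pass. Of 4 unnamed probe sets called on type B, 3 stood past the threshold only with the array. In 1 of these all sham signals were under the filter, at 81.1, 100.3 and 45.1, against 259, 382 and 275 with smoke. The others of the 3 stood at 0.78, adjusted p = 0.0474, then 0.84, adjusted p = 0.0791, and at -0.73, adjusted p = 0.0308, then -0.79, adjusted p = 0.0587. The remaining unnamed probe set kept its call (0.70, adjusted p = 0.0204, then 0.74, adjusted p = 0.0474).

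The genes that fell were led by the extracellular matrix. Of 40 matrix genes 4 were called lower, none higher, and 36 did not pass. Only 1 was called with the sham and 600 µg/l arrays alone and 1 without the intensity trend, and 3 of the 4 calls are of genes bright in both groups. Below 0 were 36 of the 40 estimates, and 13 did not overlap with all smoke arrays lower (12 of 39 without Tnc), where 7.53% of all genes did. The median was -0.20 and the summed signal 69064 to 74237 in sham and 59587 to 62504 at 600 µg/l. Spon2, a secreted matrix and pattern-recognition protein, read 1346, 788 and 1525 in sham and 366, 407 and 573 at 600 µg/l and fell by 1.32 (SE 0.15) on the log2 scale (adjusted p = 0.00351). Its highest smoke array, at 20 h, was below its lowest sham array, at 6 h. Tnc, the adhesion-modulating glycoprotein tenascin C, was tested only through its sham arrays, at 362, 344 and 249.9 in sham and 128, 118 and 182 with smoke, the latter all under the filter. Col5a2, a chain of the collagen that sets fibril width, read 2741, 3461 and 2632 and 1767, 1982 and 2104 and fell by 0.58 (SE 0.10) (adjusted p = 0.0364). Loxl1, which cross-links elastin, read 670, 820.2 and 817 and 413, 579.5 and 609.9 and fell by 0.50 (SE 0.09) (adjusted p = 0.0471). Elastin itself, Eln, stood at -0.55, adjusted p = 0.331, fibrillin Fbn1 at -0.39, adjusted p = 0.125, and the main fibrillar collagen genes Col1a1 and Col3a1 at -0.34, adjusted p = 0.276, and -0.24, adjusted p = 0.331.

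Signalling, vascular and nerve genes also gave single falls. Wif1, a secreted Wnt inhibitor, read 1414, 1891 and 1793 in sham and 811, 1009 and 1361 with smoke, least apart at 20 h, and fell by 0.68 (SE 0.10) (adjusted p = 0.0202) as the only one of 38 Wnt, BMP and TGF-beta genes to pass (median -0.04), and none did with the sham and 600 µg/l arrays alone. Gja4, the arterial gap junction protein connexin 37, read 1269.7, 1458 and 1688 and 608, 901 and 1045 and fell by 0.78 (SE 0.11) (adjusted p = 0.0143), a call lost without the 20 h arrays. The other 31 endothelial genes did not pass (median -0.09, 25 of the 32 estimates below 0), and their summed signal with Gja4 was 118539 to 125257 in sham and 115395 to 116567 at 600 µg/l. Scn7a, a sodium-sensing channel of nerve and Schwann cells, fell by 0.66 (SE 0.10) from 1809, 2104 and 1948 to 959, 1256 and 1498 (adjusted p = 0.0219), and Lrrn3, a leucine-rich repeat protein, by 0.68 (SE 0.11) from 329.5, 352 and 330 to 194, 177 and 207 (adjusted p = 0.0235). Both stand in the list of nerve and Schwann cell genes, of which 1 was called without the 20 h arrays or the trend and none with the sham and 600 µg/l arrays alone. Its other 5 measured members did not pass, among them Mbp at 0.28, adjusted p = 0.526. Tcim read 694, 599.8 and 710.2 and 298, 327 and 510.5 and fell by 0.78 (SE 0.13) (adjusted p = 0.0328), Septin4, a cytoskeletal GTPase, fell by 0.58 (SE 0.09) (adjusted p = 0.0264), and Gng11, a G protein gamma subunit, by 0.57 (SE 0.10) on type A (adjusted p = 0.0426), its type B probe set standing at -0.12, adjusted p = 0.782.

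Cyp4b1, a cytochrome P450 of airway club cells that activates furans, read 5659.8, 4854 and 5739.8 in sham and 3605, 3049 and 3623 at 600 µg/l. It fell by 0.65 (SE 0.07) on the log2 scale (adjusted p = 0.00203), and the 3 differences, -0.64, -0.66 and -0.66, were almost equal. It was the only one of 17 club cell and lung P450 genes to pass, and Cyp2f4, a naphthalene-activating P450 of the same cells, stood at -0.79, adjusted p = 0.25. The list's median was 0.11 and its summed signal 52078 to 57065 in sham and 48765 to 62704 at 600 µg/l, with groups that overlapped.

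**Figure D4:**
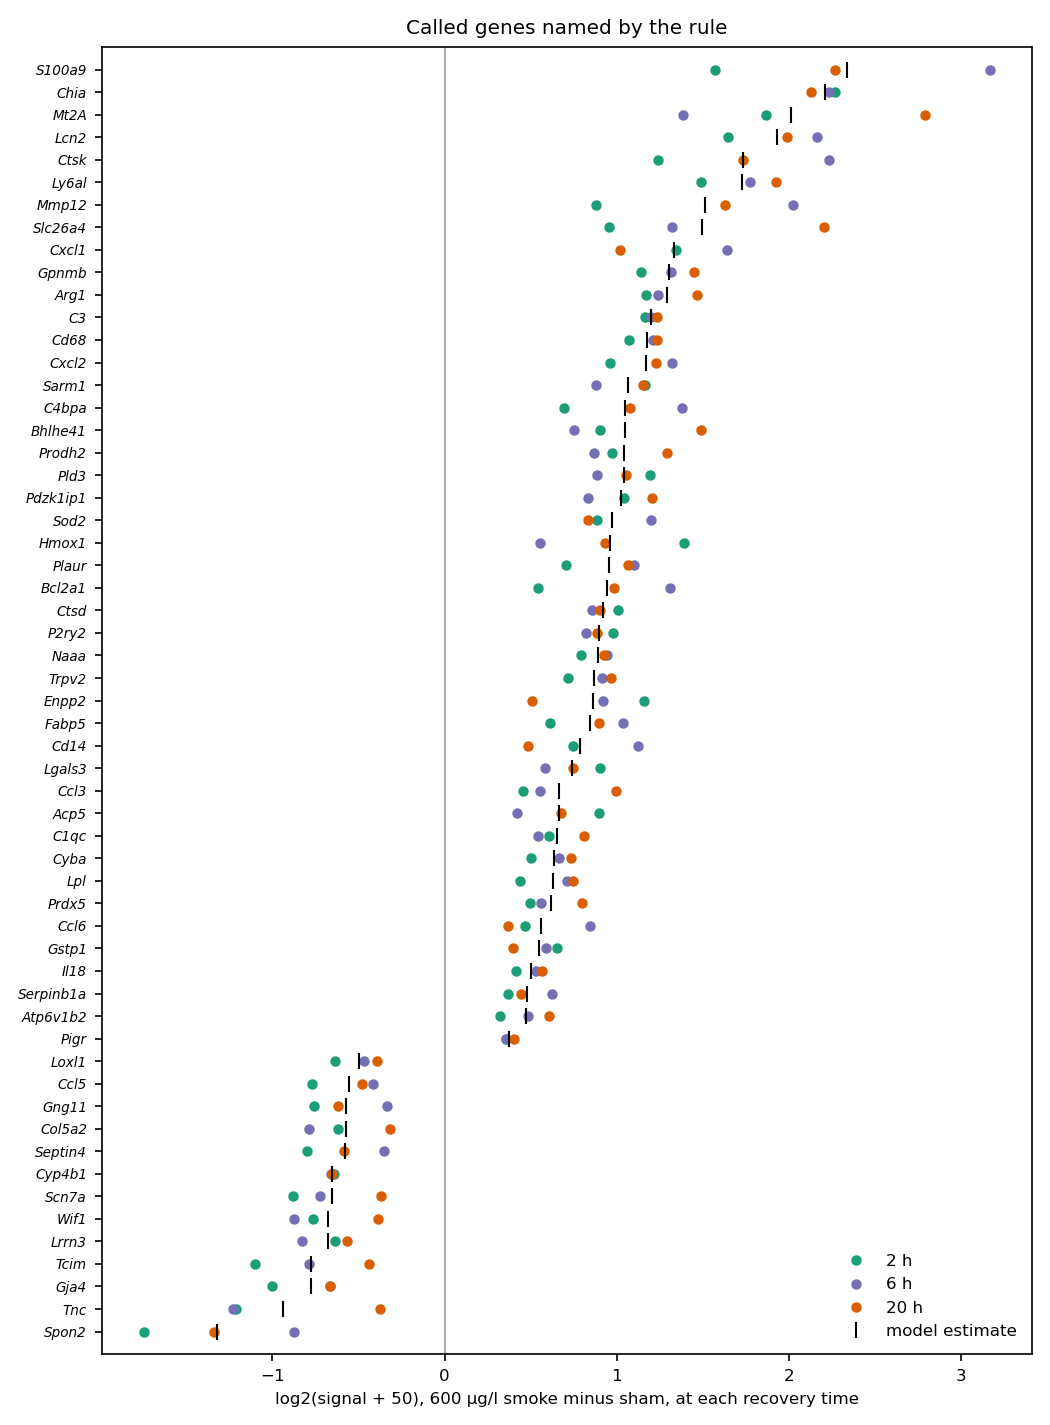
Log2 differences between 600 µg/l smoke and sham (x axis) at 2, 6 and 20 h for the called genes that the naming rule selects (y axis), sorted by the model estimate (black tick). No gene has points on both sides of 0. S100a9, Mt2A and Slc26a4 spread most between times, and Cyp4b1, Pigr and C3 least.

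All measured T and NK cell genes had estimates below 0, and 1 passed. Of the 23, 11 did not overlap with all smoke arrays lower, where 7.53% of all genes did, the median was -0.32, and the medians at 2, 6 and 20 h were -0.30, -0.31 and -0.27. Without Cd3d, Cd5 and Cd8a, whose smoke signals were all under the filter, 9 of 20 did not overlap and the median was -0.25. Only Ccl5 passed, and not without the 20 h arrays, without the intensity trend or with the sham and 600 µg/l arrays alone. The summed signal was 12985 to 13983 in sham and 9895 to 11087 at 600 µg/l. The T cell receptor complex gene Cd3g read 483, 432 and 495 in sham and 309.8, 325 and 406 with smoke (-0.40, adjusted p = 0.163), the co-receptor gene Cd4 443, 447 and 391 and 312, 280.1 and 363 (-0.38, adjusted p = 0.262), and the cytotoxic granule gene Nkg7 661, 617 and 570.1 and 354, 449 and 457 (-0.51, adjusted p = 0.149). Among 13 B and plasma cell genes none passed and the median was 0.01. None of 10 MHC class II genes passed (1 did without the doubtful array), with RT1-Da nearest at 0.33, adjusted p = 0.0527, 9 of the 10 estimates above 0 and a median of 0.34.

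Epithelial, muscle and blood markers are given beside these results. Of 15 alveolar type 1 genes none passed (median -0.10, 13 of 15 below 0), with the water channel gene Aqp5 at -0.40, adjusted p = 0.113. Of 20 alveolar type 2 and surfactant genes only Chia rose, the median was 0.12, and the summed signal was 118138 to 129377 in sham and 128992 to 146689 at 600 µg/l. None of 12 ciliated cell, 13 smooth muscle, 6 mast cell, 9 cardiac muscle, 4 erythroid or 6 adipose and skeletal muscle genes passed, with medians of 0.11, -0.09, -0.19, -0.15, -0.27 and -0.03. Surfactant genes that define lung epithelium were bright on every array, Sftpd reading 7723, 8560.3 and 7834 in sham and 8398, 9813 and 9287 with smoke. The part of any shift in cell mixture in the changes of single genes was not tested.

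**Figure D5:**
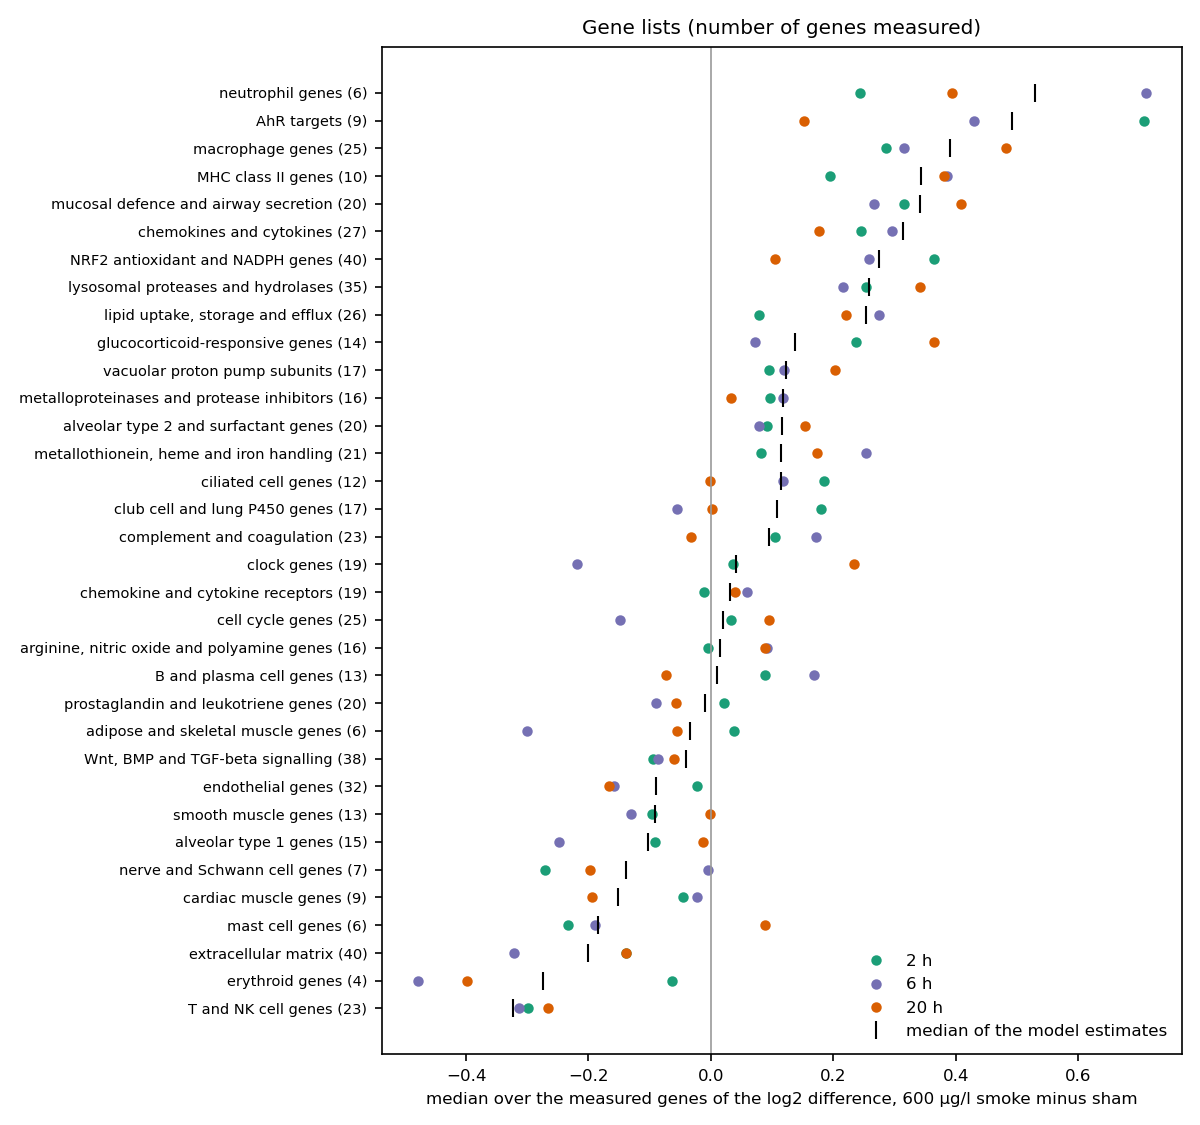
Median log2 difference between 600 µg/l smoke and sham (x axis) over the measured genes of each of 34 lists (y axis, number of genes in brackets), at 2, 6 and 20 h, with the median of the model estimates as a black tick. The medians of the AhR list are 0.71, 0.43 and 0.15 at the 3 times, while macrophage, lysosomal, and T and NK cell genes keep their side at all 3.

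Over the called probe sets the differences were of similar size at each recovery time. The 84 risers had median log2 differences of 0.83, 0.88 and 0.89 at 2, 6 and 20 h, and the 17 that fell -0.77, -0.72 and -0.57. The largest difference of a riser lay at 2 h in 20, at 6 h in 32 and at 20 h in 32, and the smallest lay at 2 h in 46. Of those that fell, 8 fell furthest at 2 h, 7 at 6 h and 2 at 20 h. The 12 probe sets bright in 1 group are among them. Differences that vary between times add to the spread of the fit, so that even ones are called more readily, though Mt2A differed by 1.87, 1.39 and 2.79. These counts therefore describe the called genes and not the lung as a whole. Cyp1a1, whose difference shrank with time and which was not called, is not among them.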

How the data were processed

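Lung RNA of sham and smoke-exposed rats was measured on Affymetrix arrays of type A and type B. The deposited values are linear signal intensities; the submitters' processing notes name MAS5, with no version, and the mean signal without the highest and lowest 2% was close to 500 on every array. A probe set was tested if it reached 183.8 on type A or 238.7 on type B, the 40th percentile there, in 3 of 9 arrays, and the 57 control probe sets per type were dropped. Values were analysed as log2(signal + 50) with limma 3.58.1 in R 4.3.3, with lmFit and eBayes with an intensity trend, on all 9 arrays of a type (300 µg/l included, for the spread), with exposure and recovery time as terms. Tests were two-sided, with Benjamini-Hochberg adjustment over both types and a threshold of 0.05. The number of arrays limits the precision.

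Each gene of a list was represented by its brightest tested probe set, named through the platform annotation. Named were the 30 largest rises among called genes and up to 20 of the largest falls, of which there were 13. Every called member of a list and up to 4 further members by smallest p were also named. Other genes named were chosen after their values were seen. The members and lists were chosen with earlier results of these data known. Alternatives covered scaling, pseudocount, filter, adjustment, trend, time as a term and arrays left out.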

Additional observations from a re-analysis of the deposited data

How the results depend on the processing

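The count of 101 calls was 102 after quantile or median scaling, 102 and 104 with 0.25 and 4 times the pseudocount, 88 with a filter at the 60th percentile, 143 with adjustment within each type, 106 without recovery time as a term, and 124 without the doubtful type B array. With both type B arrays at 2 h that resemble each other left out, an alternative chosen after seeing the data, it was 111. It fell to 35 with no filter, 54 without the intensity trend, 57 with only the sham and 600 µg/l arrays, 55 without the 20 h conditions, and 43 to 58 with 1 exposure and time left out. The 84 calls higher became 31, 47, 50 and 46 in those first 4 settings and 35 to 50 with 1 exposure and time left out. The 17 calls lower became 4, 7, 7 and 9, then 4 to 8, and were 33 with adjustment within each type. Fewer arrays leave fewer residual degrees of freedom, and no filter tests more probe sets; the cause was not tested otherwise. Over 189 named genes and 3555 pairs of gene and setting, 316 pairs lost the call, 67 gained it and 4 turned sign, all in genes that were not called: with 1 exposure and time left out, Myh1 ran from -4.33e-05 (without sham at 6 h) to 0.2204, Atp2a1 from -0.1509 to 0.0022 (without sham at 6 h), and Ncf4 from -0.1739 to 0.0494 (without sham at 6 h) and 0.0319 without 600 µg/l at 6 h. Of 646 pairs of list and setting, 44 medians moved by more than their spread between recovery times. Arrays of both groups are paired by recovery time, which is a term of the fit; the count without that pairing is the 106 given above. The labels give no replicate numbers.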

Other observations

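Of the probe sets that did not pass, 48 had an estimate of at least 2-fold, 29 higher and 19 lower. Noxo1, an organiser of NADPH oxidase 1, read 385, 57.5 and 130.1 in sham and 508, 604 and 596 at 600 µg/l on type B (log2 1.60, adjusted p = 0.0964). Without the doubtful sham array its estimate was 2.14, which rests on sham signals that were all under the filter. Slc47a1, an exporter of organic cations, read 175, 39.5 and 34.5 in sham, under the filter, and 314, 366 and 506 with smoke, and was tested only through its smoke arrays. Retnla, a secreted protein of type 2 inflammation, was bright on type A at 5442, 2959 and 4609.5 in sham and 9719.7, 8604 and 10477 with smoke (1.18, adjusted p = 0.0645). Bpgm, a red cell enzyme, read 849, 829 and 1058 and 206, 589 and 388 on type B (-1.21, adjusted p = 0.0607), while Alas2, the first enzyme of red cell heme synthesis, read 1267, 1518 and 1595 and 1019, 905 and 762 on type A (-0.68, adjusted p = 0.0547).

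Lists not described above held few calls. Of 14 glucocorticoid-responsive genes Lcn2 and Mt2A rose, which other lists hold too, and the median was 0.14. None of 20 prostaglandin and leukotriene genes passed, with the lipoxygenase genes Alox15 at -0.54, adjusted p = 0.175, and Alox5 at -0.39, adjusted p = 0.203. None of 25 cell cycle genes passed (median 0.02). Per2, a core clock gene, read 317, 732 and 266 in sham and 1076, 672 and 694 with smoke, with sham at 6 h above both later smoke arrays (0.91, adjusted p = 0.262).

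The type B probe sets of RT1-Ba, an MHC class II chain, differed widely between arrays of 1 group. The brighter read 5993, 329.9 and 579.6 in sham, 8902, 964 and 1162 at 600 µg/l and 6066, 4895 and 342 at 300 µg/l, so that 4 of the 9 arrays were several times above the other 5, while the brighter type A probe set read 2212, 2055 and 2333, 2025, 2213 and 2410.4 and 1902, 3145 and 2430.5.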
